A study of Mus musculus with 9 samples.

Results

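PPARγ binding at mid-light was compared with binding at mid-dark in interscapular brown adipose tissue (iBAT). The members are 6 of the 9 samples of the series, taken by their labelled Zeitgeber time (ZT), in hours after lights on. The libraries of ZT3, ZT6 and ZT9 form the mid-light side, and those of ZT15, ZT18 and ZT21 the mid-dark side. All 66066 deposited PPARγ peaks were compared, and the columns of ZT0 and ZT12 were not used. On both sides the tissue came from male C57BL/6J mice, an inbred strain, 10 weeks old, untreated, chow-fed and kept at 22 °C under 12 h of light and 12 h of darkness. Mice are mostly inactive and eat less during the light phase, and are active and feed mostly during the dark phase. The mice had free access to food and were not fasted before they were killed. Each library came from 1 pool of tissue. The methods for ChIP give 8 mice a pool, and those for animals give 4 mice a time point. No time point was repeated. The 3 libraries of a side are therefore neighbouring times, and the spread between them holds the change over 6 h together with differences between pools and preparations. All p-values below are measured against that spread.

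PPARγ is a nuclear receptor activated by fatty acids and their derivatives, and it is required for the formation and upkeep of fat cells. Paired with a retinoid X receptor (RXR) it recognises DNA, typically at a direct repeat of AGGTCA spaced by 1 base (a DR1 element), next to genes that take up, store, release and burn fatty acids. In brown fat these include Ucp1, whose protein lets mitochondria release energy as heat. ChIP-sequencing pulls down DNA fragments fixed to the receptor with an antibody, and more reads over a peak mean that more of the fragments recovered came from there. In bulk tissue, fewer cells of a type and less binding per cell cannot be told apart.

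Between 29572225 and 34264812 reads were counted in peaks per library. Normalized counts below are these counts scaled by edgeR's TMM factors to the median library, and TMM factors ranged from 0.961 to 1.04. Log2 fold changes are mid-light minus mid-dark, so that a positive value is higher at mid-light. A peak was called at an adjusted p (Benjamini-Hochberg over all 66066 peaks, edgeR's quasi-likelihood test) under 0.05. Peaks are described by the nearest start site of a curated RefSeq transcript, with distances counted from the start site to the centre of the peak, negative upstream. All coordinates are those of mm10 (GRCm38).

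Sequences of 61 bases are printed to show what PPARγ's own element looks like in peaks of either direction. Each is read from GRCm38.p6 on the strand of the best match to AGGTCANAGGTCA in the peak (12 fixed bases, both strands searched, the first of equally good matches), 5′ to 3′, and the match is in capitals. Mismatches are written as the base of the motif, its position from 1 at the 5′ end of the motif, and the base in the genome. The first 7 were chosen for a close match, with at most 2 mismatches, and lie in peaks called higher at mid-light: the peak with the largest fold change (an intron of Adam22), the peak at A630001O12Rik, the strong peaks at Gm15441, Pnpla2, Angptl4 and Ucp1, and the peak upstream of Sik1.
Adam22 intron: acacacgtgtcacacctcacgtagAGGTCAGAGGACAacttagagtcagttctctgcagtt
A630001O12Rik: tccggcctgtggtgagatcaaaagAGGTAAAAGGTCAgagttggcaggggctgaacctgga
Gm15441: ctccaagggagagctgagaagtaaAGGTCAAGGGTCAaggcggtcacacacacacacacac
Pnpla2: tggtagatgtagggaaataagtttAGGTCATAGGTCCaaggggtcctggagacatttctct
Angptl4: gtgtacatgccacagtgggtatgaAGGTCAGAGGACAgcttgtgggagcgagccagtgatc
Ucp1: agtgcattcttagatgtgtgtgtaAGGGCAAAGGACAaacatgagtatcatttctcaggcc
Sik1: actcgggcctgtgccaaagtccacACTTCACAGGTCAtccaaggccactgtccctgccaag
The stretches are chr5:8157662-8157722 (plus strand, T11A), chr8:126895594-126895654 (plus, C5A), chr3:96577471-96577531 (plus, A8G), chr7:141453603-141453663 (minus, A13C), chr17:33775751-33775811 (plus, T11A), chr8:83283862-83283922 (minus, T4G and T11A) and chr17:31862204-31862264 (minus, G2C and G3T). None of these 7 stretches overlaps an annotated exon.

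The next 4 lie in peaks called higher at mid-dark, and are those whose best match had 2 mismatches among the 10 of largest fold change and the 5 strongest. None of these 15 held a closer match, and 11 had 3 or 4 mismatches. Of the same 15 peaks at mid-light, 4 held a match with at most 1 mismatch, 4 one with 2, and 7 none closer than 3 or 4, the Nr1d1 peaks at -7955 and 7224 bases among them. Of all peaks, 4.99% held a match with at most 1 mismatch and 23.6% one with at most 2. The 5 strongest peaks were 6862 to 14712 bases wide at mid-light and 3949 to 5761 at mid-dark. More bases were thus searched in those of mid-light, and shares at like width are given below.
1700022A21Rik: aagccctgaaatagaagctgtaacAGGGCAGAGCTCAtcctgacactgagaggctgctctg
Acsl5: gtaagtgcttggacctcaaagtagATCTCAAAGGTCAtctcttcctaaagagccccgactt
Sox5os3: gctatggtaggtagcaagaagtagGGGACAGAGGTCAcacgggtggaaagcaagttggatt
Ptprg: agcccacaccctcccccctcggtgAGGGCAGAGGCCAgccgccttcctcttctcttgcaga
These are chr5:24658128-24658188 (plus, T4G and G10C), chr19:55250798-55250858 (minus, G2T and G3C), chr6:144781031-144781091 (minus, A1G and T4A) and chr14:11555334-11555394 (plus, T4G and T11C). The last stretch shown is a peak that was not called, at Plin1, the coat protein of the fat cell's lipid droplet, whose element (chr7:79734275-79734335, minus, T11A) carries the same mismatch as those of Adam22 and Angptl4.
Plin1: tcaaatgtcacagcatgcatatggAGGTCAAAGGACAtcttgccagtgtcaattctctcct
A match to a motif is a description of the sequence, and binding at these bases was not measured apart from the whole peak. In the wide peaks the match can lie far from the centre, for example at -3339 bases from the centre at Angptl4 and -4426 at Ucp1, against -67 bases in the Adam22 intron.

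Of the 66066 peaks, 1756 (2.66%) were called higher at mid-light and 415 (0.628%) higher at mid-dark, 3.29% in all. The median fold of the called peaks was 1.51 at mid-light and 1.63 at mid-dark, and 99 and 28 of them differed at least 2-fold. In every called peak the 3 libraries of one side lay above all 3 of the other. Such separation was common among all peaks: in 14.5% all mid-light libraries were above all mid-dark libraries, and in 12.3% the reverse. The clearest calls were in the clock gene Nr1d1, where 3 peaks had an adjusted p of 0.00163. In all, 4 peaks passed at 0.01.

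How many peaks were called depended on single libraries. Without ZT21 the calls increased to 3093 and 1680 (higher at mid-light and at mid-dark). They fell to 449 and 93 without ZT3, 256 and 17 without ZT9, 35 and 3 without ZT15, 10 and 0 without ZT6, and 3 and 0 without ZT18. The 3 peaks called without each library in turn were those of Nr1d1 at -7955, 380 and 7224 bases. The scaling moved the balance as well: TMM gave 80.9% of the calls to mid-light, while scaling to library totals alone gave 765 and 649 calls, 54.1% to mid-light, with the median of all peaks at -0.09 instead of -0.01.

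**Figure D1:**
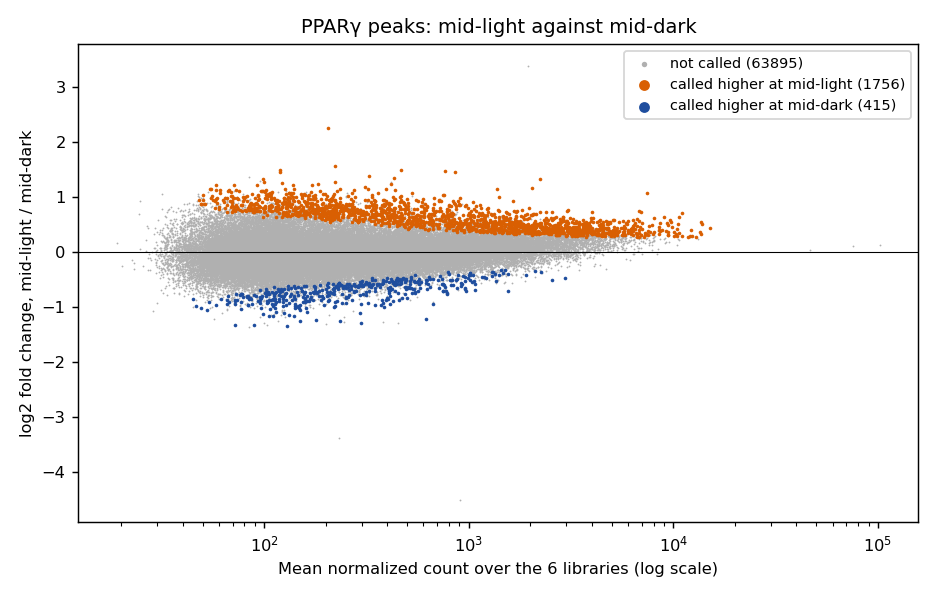
Each point is a PPARγ peak, with the mean normalized count over the 6 libraries (log scale) on the horizontal axis and the log2 fold change of mid-light over mid-dark on the vertical axis. Orange points are the 1756 peaks called higher at mid-light and blue points the 415 called higher at mid-dark, and the orange points extend to the strongest peaks on the right with small fold changes.

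Within a side the libraries were not alike. Among the 1756 peaks called higher at mid-light, ZT6 was the highest library in 1196, ZT3 in 284 and ZT9 in 276. The lowest library was ZT15 in 914, ZT18 in 747 and ZT21 in 95. ZT21 was the dark library closest to the light side in 1264 of these peaks. The 415 peaks called higher at mid-dark mirrored this order: ZT15 was highest in 200, ZT18 in 174 and ZT21 in 41, and ZT6 was lowest in 200. The library of ZT21 thus stood between the sides in both sets, and ZT6 farthest from the dark libraries.

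Peaks higher at mid-light were stronger and wider at the median than the other peaks, and 42.2% of them were in the strongest 10% of peaks. Their median width was 1442.5 bases and their median normalized count 798, against 803 bases and 223 in peaks not called, and 1020 bases and 251 in peaks higher at mid-dark. When all peaks were ordered by mean normalized count and divided into 10 equal classes, 0.727% of the weakest class and 11.2% of the strongest (741 of 6607) were called higher at mid-light. The share called higher at mid-dark stayed between 0.212% and 0.908% in all classes and was 0.288% in the strongest. The median log2 fold change ran from -0.05 in the weakest class to 0.13 in the strongest, in which 75.9% of the peaks had a positive value.

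As shares of each library, the same counts gave strong peaks a larger part at mid-light. Strength was ranked on these same 6 libraries, so the shares restate the shift above and are not separate support for it. The strongest 10% of peaks held 47.2% of the reads counted in peaks at ZT3, 48.0% at ZT6 and 46.9% at ZT9. At mid-dark they held 44.2% at ZT15, 44.3% at ZT18 and 45.2% at ZT21. The sides did not overlap, with 47.4% ± 0.594 (SD, n = 3) against 44.6% ± 0.586 (SD, n = 3). The exact permutation test (two-sided) gave p = 0.1, the smallest value that 3 against 3 can give. The calls in this class depend on the scaling. With library totals, 306 peaks of the strongest class were called higher at mid-light and 46 higher at mid-dark. With cyclic loess, which makes the fold change independent of peak strength by construction, these counts were 123 and 76. The class also followed single libraries: without ZT21, ZT3, ZT9, ZT15, ZT6 and ZT18, 1143, 210, 115, 19, 5 and 2 of its peaks were called higher at mid-light. Each time point was 1 preparation of chromatin, so that time and preparation cannot be told apart.

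**Figure D2:**
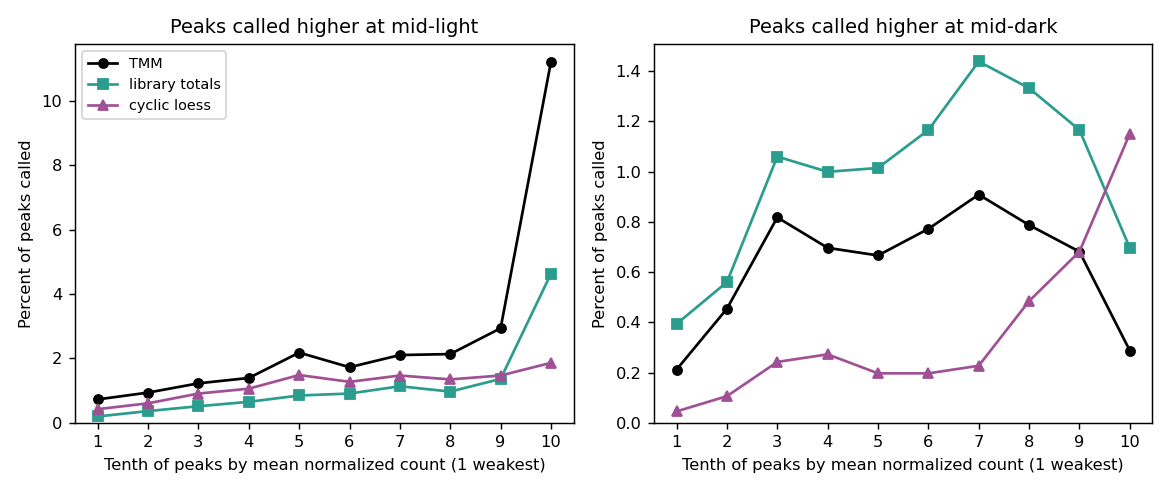
The percent of peaks called higher at mid-light (left) and at mid-dark (right) is plotted for 10 classes of peaks by mean normalized count, from weakest (1) to strongest (10), under TMM (circles), library totals (squares) and cyclic loess (triangles). Under TMM the strongest class reached 11.2% on the left and stayed at 0.288% on the right, and under cyclic loess it was 1.86% and 1.15%.

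The called peaks also differed in position and sequence, described here without a test. Peaks within 1 kb of a start site were 15.7% of all peaks, but 6.95% of those higher at mid-light and 10.1% of those higher at mid-dark. The share between genes was 48.8% of the mid-light and 44.3% of the mid-dark peaks, against 40.8% of all. The median GC content was 48.9% in mid-light peaks, 45.1% in mid-dark peaks and 47.3% in all.

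A DR1 element with at most 1 mismatch anywhere in the peak was found in 10.5% of mid-light peaks (185), 2.65% of mid-dark peaks (11) and 4.99% of all peaks (3296). Width alone changes such a share. Among peaks of 500 to 1500 bases it was 5.28% at mid-light (42 of 795), 1.67% at mid-dark (5 of 299) and 3.97% in peaks not called (1623 of 40876). In the central 500 bases of every peak it was 3.53%, 0.723% and 2.82% (62 and 3 called peaks, and all peaks). Mid-light peaks thus held DR1 elements more often than mid-dark peaks under each of these counts.

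Motifs of other factors were counted in the same central 500 bases on both strands. CACGTG, the E-box bound by CLOCK and BMAL1, was in 12.1% of mid-light peaks, 8.92% of mid-dark peaks and 8.62% of all. TTGCNNAA, a C/EBP motif, was in 20.7%, 35.7% and 27.8%. TTGGCA, the half-site of nuclear factor I, was in 31.6%, 40.7% and 36.2%, and TTATGTAA, the D-box, in 1.37%, 3.37% and 3.17%. TAGGTCA, a motif of ROR and REV-ERB receptors that can overlap a DR1 element, was in 7.06%, 6.27% and 6.53%. The C/EBP and nuclear factor I shares were lower among strong peaks. In the strongest class, mid-light peaks and peaks not called held the E-box in 10.1% and 8.98%, the C/EBP motif in 21.2% and 23.4% and the nuclear factor I half-site in 29.6% and 29.4%. GC content differs between the sets as well, and its part in these shares was not tested.

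Of 117 peaks assigned to the 19 genes of the clock list, 15 were called higher at mid-light (12.8%, against 2.66% of all peaks) and 1 higher at mid-dark. The median log2 fold change of the list was -0.02, against -0.01 over all peaks, so the calls lay in a part of the list. The mid-light calls were at Nr1d1 (4), Hlf (5), Bhlhe40, Bhlhe41, Cry2, Dbp, Per1 and Tef (1 each). Repressors of the clock and its PAR bZIP output factors were among these genes. Repressors without a call, such as Per2 and Nr1d2, were on the list as well, and the difference was not tested. Peaks of Arntl and Npas2, the activators, had median log2 fold changes of -0.51 and -0.45 with no call. The only peak of Clock, the third activator, gave -0.11 (adjusted p = 0.514), and Nr1d2, a repressor, had a median of -0.11 with no call. The list's 15 mid-light calls were 16 without ZT21, 11 without ZT3, 5 without ZT9, 4 without ZT15 and 3 without ZT6 or ZT18. Under library totals the list had 9 calls at mid-light and 2 at mid-dark, under cyclic loess 8 and 3, and with the GC trend removed 10 and 0. The mid-dark calls were 4 without ZT21.

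Nr1d1 encodes REV-ERBα, the nuclear receptor that represses Arntl. Its strongest peak (chr11:98771749-98778246), 380 bases from the start site, had 9274 normalized counts at ZT3, 11448 at ZT6 and 9384 at ZT9. It had 4584 at ZT15, 4733 at ZT18 and 5053 at ZT21. The sides were far apart, and the light mean was 2.1-fold higher (log2 fold change 1.07 ± 0.09 SE, adjusted p = 0.00163).

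The upstream peak of Nr1d1 (chr11:98782172-98784492, at -7955 bases, between genes) had 2785, 3643 and 3094 normalized counts at ZT3, ZT6 and ZT9. At ZT15, ZT18 and ZT21 it had 1247, 1174 and 1364. The log2 fold change was 1.33 ± 0.11 (SE), and the spread within either side was small against the gap. At the other end of the gene (chr11:98766520-98769787, 7224 bases from the start, in the 3′ UTR of exon 8) the 3 light libraries had 1170, 1308 and 1298, and the dark ones 545, 398 and 426. The log2 fold change there was 1.46 ± 0.12, again with an adjusted p of 0.00163. A weaker peak at 9581 bases, in an intron of the neighbouring Thra, differed less (0.61 ± 0.10, adjusted p = 0.0231), and the last, at 10633 bases, gave 0.17 ± 0.16 (adjusted p = 0.549). Along the locus the 3 peaks from upstream to the 3′ end of Nr1d1 had the larger values, and the last peak was the only one not called.

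The promoter of Nr1d1 lies inside the strongest of these peaks, and the 250 bases before its start site (RefSeq, GRCm38.p6, chr11:98775378-98775627, minus strand) are printed 5′ to 3′.
Nr1d1 promoter: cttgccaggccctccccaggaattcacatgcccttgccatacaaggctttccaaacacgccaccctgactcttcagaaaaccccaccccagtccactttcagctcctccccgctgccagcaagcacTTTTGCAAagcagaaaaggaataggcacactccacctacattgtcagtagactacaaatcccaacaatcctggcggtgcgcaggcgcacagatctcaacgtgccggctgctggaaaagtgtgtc
Capitals mark the single match among the 5 motifs above, TTGCNNAA on the reverse strand, at -124 bases from the start site. This motif is found in 9.58% of the same 250 bases of 32544 RefSeq promoters, and the E-box in 6.03% of them.

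Dbp, Cry2 and Per1 also had a called peak each, at smaller folds than the 3 clearest peaks of Nr1d1. Dbp encodes a bZIP output factor of the clock, and its only peak (1124 bases from the start, intron 1) had 4100.1, 5586 and 5365 normalized counts in the light libraries. In the dark libraries it had 3071, 2943 and 3049 (log2 fold change 0.73 ± 0.10, adjusted p = 0.0206). The 3 dark values differed by little, while ZT3 was the lowest of the light side. At Cry2, a repressor, the called peak (10648 bases, intron 3) had 4558, 5009.9 and 4808 against 3491, 3169 and 3219 (0.54 ± 0.07). The only peak of Per1, also a repressor, had 5143, 5933 and 6061 against 4389, 4564 and 4357, and was higher at mid-light by 0.36 ± 0.08 (adjusted p = 0.0341).

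Cry1 went the other way. Its peak in intron 1 (chr10:85160769-85163455, 22942 bases from the start) had 565, 391 and 414 normalized counts at ZT3, ZT6 and ZT9, and 610, 1015 and 1018 at ZT15, ZT18 and ZT21. ZT3 and ZT15 nearly met, while ZT18 and ZT21 lay far above every light library. The dark mean was 1.93-fold higher (log2 fold change -0.95 ± 0.19, adjusted p = 0.0326), and the peak was not called with the GC trend removed. The strongest peak of Per2, a clock repressor, showed no such order. It had 2497, 3113 and 3437 against 3259, 3032 and 2646, and the sides overlapped (0.02 ± 0.12, adjusted p = 0.948, and -0.16 under cyclic loess). The strongest peak of Arntl had a log2 fold change of -0.15 ± 0.10 (adjusted p = 0.429).

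Several genes held runs of called peaks. The 1756 mid-light peaks fell into 1219 loci when peaks within 50 kb were joined, of which 30 held 5 or more, and the 415 mid-dark peaks into 373 loci, of which 1 held 5 or more. Sik1, salt-inducible kinase 1, had the most calls of any gene: 11 of its 21 assigned peaks, all higher at mid-light, and all 21 fold changes were positive. The peak at -6354 bases (chr17:31861467-31862849) had 673, 556 and 623 normalized counts in the light libraries and 178, 201 and 347 in the dark ones (log2 fold change 1.35 ± 0.21, adjusted p = 0.0206). Here ZT21 was well above ZT15 and ZT18 but below every light library.

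The strongest peak assigned to Sik1, 64637 bases downstream of its start (chr17:31787464-31794871), had 8819, 8862 and 8366 against 5222, 4715 and 5721 (0.73 ± 0.08, adjusted p = 0.0118). The light values were close to each other. The 10 peaks of Sik1 that were not called had values from 0.13 to 0.40 and lay between the called ones along the locus. A630001O12Rik, a noncoding RNA gene, had 8 called peaks of 22. Pde7b, a phosphodiesterase of cyclic AMP, had 7 of 27, and Pim3, a serine/threonine kinase, 7 of 11, with all 11 values positive. Pim3 and its neighbours Creld2 and Ttll8 formed the largest locus, with 11 called peaks of 17.

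At mid-dark the gene with the most calls was Rps6ka3, which encodes the kinase RSK2, with 4 of 22 peaks called and no positive value among the 22. These 4 lay far upstream, at -194730, -181371, -98580 and -33738 bases. The one at -98580 had 149, 128 and 126 normalized counts in the light libraries and 245, 214 and 210.2 in the dark ones (-0.73 ± 0.15, adjusted p = 0.0313). The promoter peak of the same gene did not separate the sides (-0.02 ± 0.10, adjusted p = 0.924). Of the next genes, 9 tied with 3 calls each, among them Zc3h6, Epb41l2, Asph and Ptprg. Called peaks of both directions were assigned to 19 genes.

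**Figure D3:**
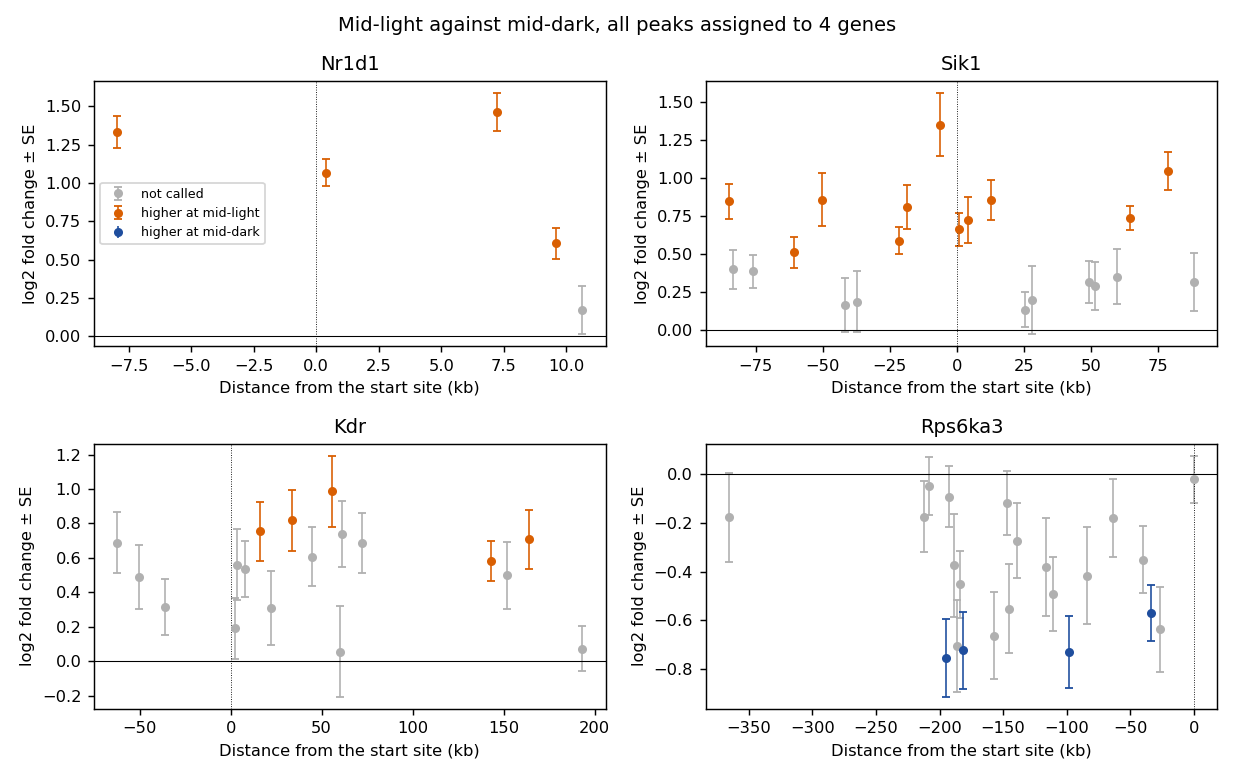
Log2 fold change (mid-light over mid-dark, with SE bars from the edgeR fit) is plotted against the distance of each peak from the start site in kb, for all peaks assigned to Nr1d1, Sik1, Kdr and Rps6ka3. Orange peaks were called higher at mid-light, blue ones higher at mid-dark and grey ones were not called. All values of Sik1 lie above 0, and all of Rps6ka3 below it.

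The largest fold change of all called peaks was in intron 7 of Adam22 (chr5:8157405-8158101), 101211 bases from the start of Sri, whose product sorcin binds calcium. The peak had 355, 416 and 246 normalized counts at ZT3, ZT6 and ZT9, and 89.2, 46.5 and 77.4 at ZT15, ZT18 and ZT21. The light libraries were 4.77-fold higher on average (log2 fold change 2.25 ± 0.25, adjusted p = 0.0122). It was called with 5 of the 6 libraries left out in turn. Pacsin1, an adaptor of endocytosis, had a peak in intron 1 with 460, 528 and 414 against 183, 162 and 195 (1.38 ± 0.14, adjusted p = 0.0083). It was, with the 3 of Nr1d1, the fourth peak to pass at 0.01. The other peaks of largest fold were at Gm5907, Gpr6, A630001O12Rik, Llph and upstream of Lpl, with log2 fold changes of 1.46 to 1.57. In these 5 ZT6 was the highest library.

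**Figure D4:**
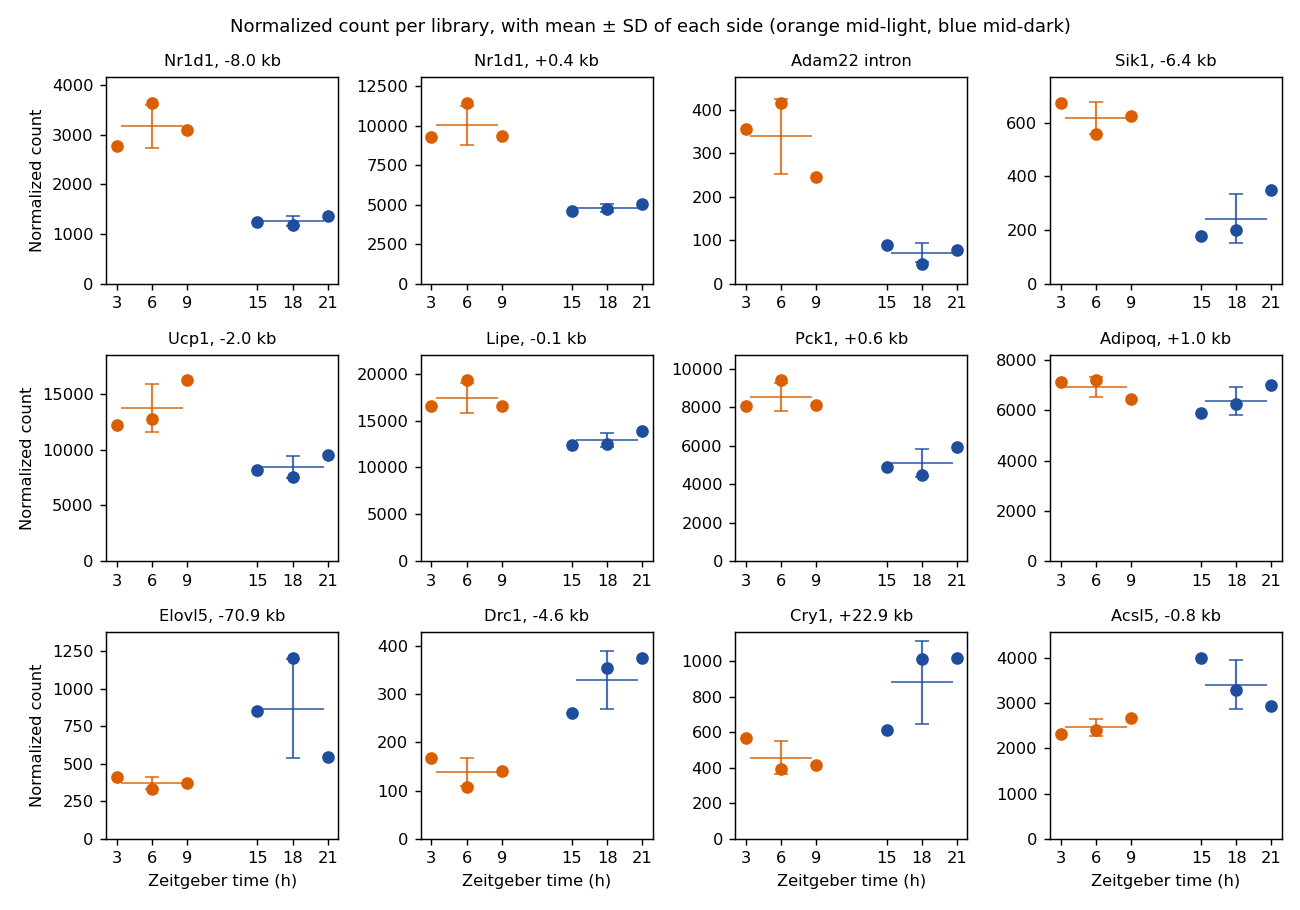
Normalized counts per library (points) against Zeitgeber time in h for 12 peaks, with horizontal lines and bars for the mean ± SD of the 3 mid-light (orange) and 3 mid-dark (blue) libraries. The sides do not overlap in the Nr1d1, Adam22, Sik1, Ucp1, Lipe and Pck1 peaks, they overlap at Adipoq, and the dark values are higher at Elovl5, Drc1, Cry1 and Acsl5.

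The 13 lists together, the clock included, held 1373 different peaks, of which 111 (8.08%) were called higher at mid-light and 7 higher at mid-dark. These peaks are stronger than most: 24.0% of them were in the strongest class, where 81 of 329 (24.6%) were called at mid-light, against 11.2% of that class over all genes. Without ZT21 the 111 became 161, and without ZT3, ZT9, ZT15, ZT6 and ZT18 they became 37, 24, 5, 3 and 3. Under cyclic loess 27 peaks of the lists were called at mid-light, and under library totals 51. Of the 61 named peaks that were called, 27 were not called under cyclic loess and 6 not under library totals.

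**Figure D5:**
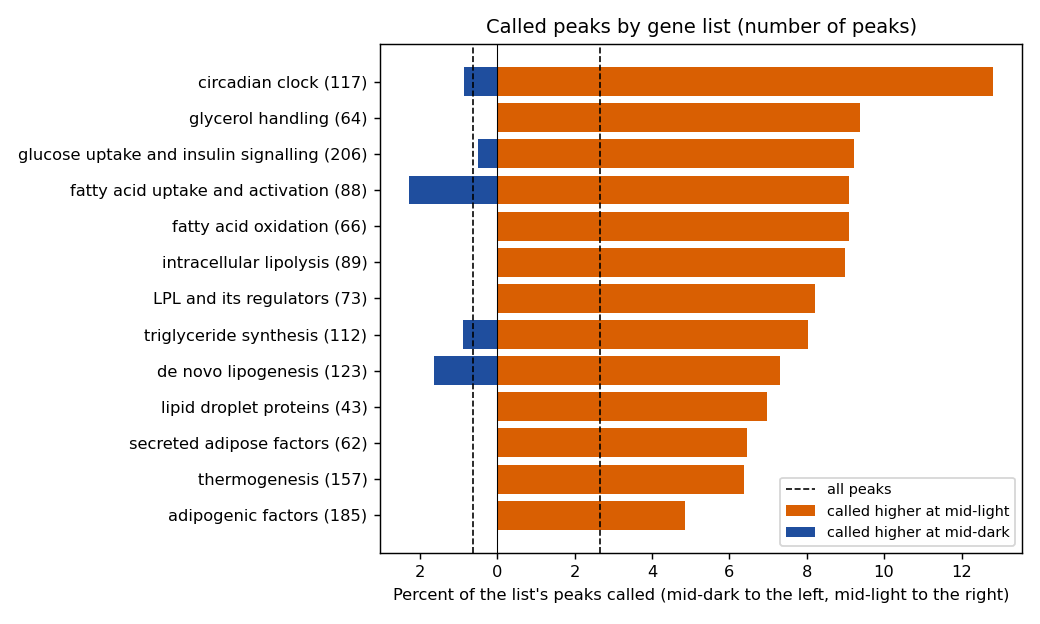
Bars give the percent of the peaks of each gene list called higher at mid-light (orange, to the right) or higher at mid-dark (blue, to the left), with the number of peaks in parentheses. The dashed lines are the shares of all peaks, 2.66% and 0.628%, and all 13 lists lie above 2.66% at mid-light, from 4.86% in adipogenic factors to 12.8% in the circadian clock.

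Lipoprotein lipase (LPL) frees fatty acids from circulating triglycerides at the vessel wall. Of 73 peaks of LPL and its regulators 6 were called, all higher at mid-light (8.22%, median log2 fold change 0.12). In the strongest class 2 of the list's 20 peaks (10%) were called, against 11.2% of that class over all genes. Library totals and cyclic loess gave 3 calls each. The 6 became 9 without ZT21, 1 without ZT3 or ZT9 and 0 without ZT6, ZT15 or ZT18. The strongest peak of Lpl itself, 1468 bases into the gene, had 7534, 7967 and 6807 normalized counts at mid-light and 6363, 6413 and 6629 at mid-dark. The sides did not overlap, but the gap was small and the peak was not called (0.20 ± 0.07, adjusted p = 0.132). Under cyclic loess the value changed sign, to -0.08. A weaker peak at -27742 bases (chr8:68852313-68853314) had 514, 957 and 580 against 161, 167 and 404 (1.49 ± 0.33, adjusted p = 0.0368).

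The other calls at Lpl were at -19806 bases (0.67 ± 0.14) and in intron 9 (0.51 ± 0.12). Gpihbp1 anchors LPL on the capillary endothelium. Its peak at -48 bases had 308, 344 and 276 against 153, 191 and 170 (0.85 ± 0.15, adjusted p = 0.0238). Angptl4, an inhibitor of LPL, had a broad peak over its gene (chr17:33772505-33785724) with 13319, 15390 and 13112 against 9524, 10423 and 11579. The light libraries were 1.33-fold higher on average (0.41 ± 0.09, adjusted p = 0.0341), and under cyclic loess the value was 0.06.

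Intracellular lipolysis had 8 of 89 peaks called, all higher at mid-light, 4 under library totals and 1 under cyclic loess. Leaving out ZT21 gave 11 and 1 at mid-dark, leaving out ZT3 gave 1, ZT9 2, and ZT6, ZT15 or ZT18 0. Pnpla2 (adipose triglyceride lipase) and Lipe (hormone-sensitive lipase) split stored triglycerides and diglycerides. The peak of Lipe (chr7:25383420-25396925) had 16524, 19267 and 16522 normalized counts against 12400, 12531 and 13837 (0.43 ± 0.08, adjusted p = 0.0242). At Pnpla2 the values were 14256, 16802 and 14581 against 11484, 11124 and 12697 (0.37 ± 0.08, adjusted p = 0.0344). ZT6 was the highest library at both, and ZT21 the highest of the dark ones. Under cyclic loess neither was called, with 0.06 (adjusted p = 0.484) at Lipe and 0.02 (adjusted p = 0.894) at Pnpla2. Prkar2b, a regulatory subunit of protein kinase A, held 4 calls. Among the 43 peaks of lipid droplet proteins 3 were called, at Plin4 (0.46 ± 0.07, and 0.15 under cyclic loess), Cidea and Cidec. Library totals gave 1 call in this list and cyclic loess 0, with Cidea at 0.01. It had 6 without ZT21, 1 without ZT3 or ZT9 and 0 without any other library. The Plin1 peak whose element is printed above was not called (0.32 ± 0.08, adjusted p = 0.0526), and gave 0.03 under cyclic loess.

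Glycerol handling had 6 of 64 peaks called higher at mid-light, 4 under library totals and 3 under cyclic loess. Without ZT21, ZT3 and ZT9 there were 13, 3 and 2, and without ZT6, ZT15 or ZT18 there were 0. Pck1, the enzyme that supplies glycerol phosphate from pyruvate in fat, had a peak over its start (chr2:173150892-173156399) with 8073, 9385 and 8123 normalized counts against 4886, 4482 and 5931 (0.74 ± 0.10, adjusted p = 0.0206). Gpd1, which makes glycerol phosphate from glycolysis, followed at 0.49 ± 0.09, and at 0.18 under cyclic loess. Of 206 peaks of glucose uptake and insulin signalling 19 were called at mid-light and 1 at mid-dark. The mid-light count was 9 with the GC trend removed, 8 under library totals and 2 under cyclic loess. It was 22 without ZT21, 4 without ZT3, 3 without ZT9 and 0 without ZT6, ZT15 or ZT18. Pdk4, which holds pyruvate back from oxidation, had 10302, 12511 and 10285 against 6604, 6649.9 and 7934 (0.64 ± 0.10, adjusted p = 0.0206). Under cyclic loess Pdk4 gave 0.34 and Pck1 0.47, both called. Pfkfb3, which makes an activator of glycolysis, held 5 calls, and a peak at -90118 bases from Irs2, a docking protein of the insulin receptor, gave 0.74 ± 0.12. The mid-dark call was a weak peak assigned to Pik3r1 (-1.0 ± 0.24, adjusted p = 0.0473). It was not called under cyclic loess, with the GC trend removed or with any 1 library left out.

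In fatty acid oxidation 6 of 66 peaks were called, all at mid-light, and the median log2 fold change was 0.25. The median was 0.17 under library totals and 0.15 under cyclic loess. Under both settings, and with the GC trend removed, 1 peak was called. In 34 of the 66 (51.5%) the light libraries all lay above the dark ones, against 14.5% of all peaks, and in 0 the reverse. The peaks of this list are stronger than most, with 37.9% in the strongest class. There 4 of 25 (16%) were called at mid-light, against 11.2% of that class over all genes. The part of peak strength in these shares was not tested. Calls were made at Cpt1a, Crat, Ehhadh, Etfdh and Hadh, among others. At Hadh, a mitochondrial dehydrogenase of β-oxidation, the peak in intron 3 had 4076, 4365 and 4185 against 2883, 2793 and 3172 (0.51 ± 0.08, adjusted p = 0.0206), and it was also called under cyclic loess, at 0.32. The called count of this list was 17 without ZT21, 1 without ZT3 or ZT9 and 0 without ZT6, ZT15 or ZT18, and its median lay between 0.21 and 0.31.

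In fatty acid uptake and activation 8 of 88 peaks were called higher at mid-light and 2 higher at mid-dark. These counts were 3 and 2 under library totals and 0 and 2 under cyclic loess. Without ZT21 they were 11 and 3, without ZT3 1 and 0 and without ZT9 3 and 0. Without ZT6, ZT15 or ZT18 no peak of the list was called. Fabp4, Fabp3, Acsl1 and Slc27a2 held the mid-light calls. The strongest peak of Fabp4, the fatty acid carrier of fat cells, had 8781, 8908 and 7826 against 6263, 6296 and 6899.5 (0.39 ± 0.07, adjusted p = 0.0280), and gave 0.11 under cyclic loess. Acsl5, an acyl-CoA synthetase like Acsl1, had the strongest mid-dark peak of all (chr19:55249710-55255470, at -779 bases): 2314, 2407 and 2680.4 normalized counts at mid-light and 3997, 3295 and 2937 at mid-dark. The fold was 1.38 towards mid-dark (log2 fold change -0.47 ± 0.11, adjusted p = 0.0434). ZT15 was the highest library and ZT21 close to ZT9. The synthetases Acsl1 and Acsl5 were thus called in opposite directions, Acsl1 at 0.43 ± 0.08, though Acsl1 gave 0.18 with no call under cyclic loess.

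In de novo lipogenesis 9 peaks of 123 were called higher at mid-light and 2 higher at mid-dark. The counts were 4 and 2 under library totals and 1 and 2 under cyclic loess. Without ZT21 they were 15 and 7, without ZT3 3 and 2 and without ZT9 1 and 0. Without ZT6, ZT15 or ZT18 both were 0. Scd1, the fatty acid desaturase, held 3 mid-light calls, and Acacb 2. Scd2, its close relative, had a peak in intron 1 with 845, 631 and 759 against 1138, 1376 and 1031 (-0.66 ± 0.13, adjusted p = 0.0298), and none of its 4 peaks had a positive value. Elovl5 elongates polyunsaturated fatty acids, and a peak at -70934 bases had 413, 333 and 372 against 849, 1204 and 544. The dark mean was 2.32-fold higher (-1.22 ± 0.22, adjusted p = 0.0265), with a wide spread among the dark libraries. A peak in exon 15 of Ccdc57, whose nearest start site is that of Fasn, the fatty acid synthase, was higher at mid-light by 0.46 ± 0.08, and gave 0.33 with no call under cyclic loess. In triglyceride synthesis 9 of 112 were called at mid-light, with Dgat2 at 0.56 ± 0.09 and Gpat3 at 0.43 ± 0.07, and 1 at mid-dark, at Agpat4 (-0.81 ± 0.18). Library totals gave 4 and 1 calls for this list. Cyclic loess gave 2 and 0, with Gpat3 at 0.26 and Agpat4 at -0.76 not called. Without ZT21 the counts were 9 and 2, without ZT3 2 and 1, and without any other library 0 and 0.

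Thermogenesis had 10 of 157 peaks called, all higher at mid-light, and 5 under library totals or cyclic loess. The 10 were 17 without ZT21, 5 without ZT3, 4 without ZT9 and 0 without ZT6, ZT15 or ZT18. The strongest peak of Ucp1 (chr8:83282288-83294336, 12049 bases wide and centred at -2036 bases) had 12230.3, 12704 and 16180.2 normalized counts at ZT3, ZT6 and ZT9. It had 8167, 7571 and 9490.1 at ZT15, ZT18 and ZT21. It was 1.63-fold higher at mid-light (0.70 ± 0.11, adjusted p = 0.0213), with the highest value at ZT9. Under cyclic loess it gave 0.39 and was not called (adjusted p = 0.0825). Of the other 7 peaks of Ucp1 none was called, and all 7 were positive. Ppargc1a and Ppargc1b, coactivators of mitochondrial genes, held 3 and 2 calls.

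Adipogenic factors had 9 of 185 peaks called (4.86%), all higher at mid-light, with a median log2 fold change of -0.02. Library totals gave 3 calls at mid-light and 1 at mid-dark, and cyclic loess 1 and 0. Without ZT21 there were 12 and 1, without ZT3 2 at mid-light, without ZT9 or ZT15 1, and without ZT6 or ZT18 0. Cebpa held 3 of them. Its widest called peak (chr7:35117347-35132058, 14712 bases wide and centred at 5409 bases from the start site) was among the strongest called. It had 15667, 15631 and 14584 against 12112, 11178 and 13009 (0.34 ± 0.07, adjusted p = 0.0331). Under cyclic loess its value was -0.02. Ppara (0.59 ± 0.09) and Cebpb (0.45 ± 0.08) had peaks near their starts called as well, and gave 0.33 and 0.18 with no call under cyclic loess. None of the 33 peaks assigned to Pparg itself was called, and the strongest had 5506, 6342 and 5777 against 4931, 4669 and 4909 (0.28 ± 0.07, adjusted p = 0.0573, and 0.03 under cyclic loess). At Adipoq, the adiponectin gene, the sides overlapped, with 7121, 7189 and 6463 against 5889, 6274 and 6997 (0.12 ± 0.08, adjusted p = 0.410, and -0.15 under cyclic loess). Among secreted factors 4 of 62 peaks were called, 3 at Vegfa and 1 at Nrg4. Library totals gave 2 calls at mid-light and cyclic loess 0, with 1 at mid-dark. The strongest called peak of Vegfa then gave 0.21 and the peak of Nrg4 0.14. Without ZT21 the list had 5 and 1 calls, without ZT3 2 and 0, and without any other library none.

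The other mid-dark peaks of largest fold were at BC006965, 1700022A21Rik, P2ry2, Drc1, Zc3h6, Nrgn, Fer1l6, Mir7689 and Mterf4, with log2 fold changes from -1.33 to -1.15. The one at -4591 bases from Drc1, a protein of cilia, had 166, 108 and 141 normalized counts at mid-light and 261, 353 and 374 at mid-dark (-1.25 ± 0.19, adjusted p = 0.0206). The dark mean was 2.38-fold higher, with no overlap. The peak at -14108 bases from Nrgn (neurogranin) had little spread on either side, with 71.1, 61.0 and 71.5 against 149, 147 and 161 (-1.16 ± 0.16, adjusted p = 0.0206). Next to Acsl5, the strongest mid-dark peaks were at F730035M05Rik, Ssh2, Sox5os3 and Ptprg, with 1.27- to 1.41-fold higher counts at mid-dark. The last of these, in intron 1 of the receptor phosphatase Ptprg, had 1876, 1423 and 1572 against 2233, 2156 and 2141.

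Markers of cell types were counted the same way. All 8 brown adipocyte markers had peaks, 94 in all, with a median normalized count of 266 against 228 over all peaks. Ppargc1a held 54 of them, and the sums were carried by a few strong peaks such as those of Lipe, Ucp1 and Cidea. The sums were 116766, 126332 and 118738 normalized counts at mid-light and 94332, 90884 and 101038 at mid-dark, and 9 of 94 were called higher at mid-light, against 2.66% of all peaks. These 9 became 12 without ZT21, 4 without ZT9, 3 without ZT3 and 0 without ZT6, ZT15 or ZT18, and 5 under library totals and 2 under cyclic loess. All 7 endothelial markers had peaks, 54 in all, and 8 were called higher at mid-light (14.8%, against 2.66% of all peaks), with a median log2 fold change of 0.43. The calls were 3 under library totals, and 4 under cyclic loess or with the GC trend removed. Their sums were 11155, 12911 and 10744 at mid-light and 8346, 9580.4 and 10166 at mid-dark, with no overlap.

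Of these 8 calls 5 were at Kdr, the receptor of vascular endothelial growth factor, and the others at Erg, Flt1 and Tek. Cdh5, Pecam1 and Tie1 had no call, with 5 of 9, 4 of 5 and 3 of 3 values positive. Their median log2 fold changes were 0.18, 0.05 and 0.61, and the strongest peak of Cdh5 gave -0.35 (adjusted p = 0.263). The peak of Kdr in intron 10 had 222, 319 and 235 normalized counts against 143, 145 and 173 (0.75 ± 0.17, adjusted p = 0.0407), and all 18 values of the gene were positive. The 8 calls became 11 without ZT21, 1 without ZT9 and 0 without ZT3, ZT6, ZT15 or ZT18, while the median lay between 0.29 and 0.52. Gpihbp1 and Vegfa, described above, belong to vessels by their function, and the part of endothelial cells in these results was not tested.

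Other cell types had few peaks. Of the macrophage, T cell, skeletal muscle and hepatocyte markers 2 of 7, 1 of 6, 2 of 8 and 3 of 6 genes had any peak. Summed counts at mid-light and at mid-dark were 314 to 349 and 199 to 267 for the 1 peak of T cell markers, 9100.3 to 10125 and 9776 to 10746 for hepatocyte markers, 413 to 441 and 498 to 647 for macrophage markers, and 2921 to 3851 and 2626 to 3077 for muscle markers. The macrophage and T cell sums did not overlap, and the peak at Cd14 was called higher at mid-dark (-0.58, adjusted p = 0.0429). That call was lost under cyclic loess and with any library other than ZT21 left out. Of the 19 hepatocyte peaks 17 were assigned to Apoa1, the strongest at -88109 and -101155 bases from its start. The hepatocyte values thus describe mostly the neighbourhood of that gene. At Apoa1 1 peak was called higher at mid-dark (-0.58 ± 0.13, adjusted p = 0.0440), against 0.628% of all peaks. It was not called under cyclic loess or with any 1 library left out. The dark libraries all lay above the light ones in 7 of the 19, against 12.3% of all peaks, and the median of the list was -0.27. The part of these cell types in the results was not tested.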

How the data were processed

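PPARγ ChIP-sequencing libraries of iBAT at 8 time points were mapped by the authors to mm10 with BWA 0.7.17, peaks were called with MACS2 2.1.2, and reads were counted with HTSeq 1.99.2 (versions from the submitters' processing notes, which also name HOMER 4.11 and MultiQC). The authors kept peaks found in at least 6 of the 8 libraries. The deposited values are whole-number read counts per peak, not normalized, and how duplicate reads were treated is not given in the sources used here. Because a peak had to be found in 6 libraries, a peak found on 1 side alone is not in the table. The input library of ZT12 was not used here.

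From the counts of the 6 libraries, edgeR 4.0.16 (R 4.3.3) was used with TMM normalization, glmQLFit and glmQLFTest, with 2 groups, no further covariate and no filter, and Benjamini-Hochberg adjustment over 66066 peaks. The common dispersion was 0.0155, with 4 residual and 7.68 prior degrees of freedom. The procedure was tested on simulated data: in this comparison, on 66066 peaks with 200 changed and a simulated dispersion of 0.015, it called 42 of 100 changed 1.5-fold, 90 of 100 changed 2-fold and 8 of 65866 unchanged. No pair of libraries agreed within sampling noise.

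Each peak took the gene whose start site was nearest among 45756 curated RefSeq transcripts (66059 peaks and 16701 genes, with 7 peaks left without one). DR1 elements were searched with at most 1 mismatch in 12 fixed bases. Promoter sequences were matched by symbol in the RefSeq table of GRCm38.p6 (1 of 1). Python 3.11.15, pandas 2.3.3, scipy 1.17.1 and pysam 0.24.0 were used, and limma 3.58.1 and DESeq2 1.42.0 for alternatives. The comparison, the gene lists and the named peaks were chosen with earlier results of these data known. Named peaks are the 10 called in each direction with the largest fold change among those of mean normalized count of at least 100, the 5 strongest called in each direction, the 2 called with the smallest p per list and direction, the strongest peak at 14 fixed genes, and the 3 genes per direction with most calls. Alternatives covered scaling, GC content, low-count filters, other tests, thresholds, the distance to the start site, motif mismatches, pairs of libraries 12 h apart and each library left out. ZT0 and ZT12 were left out because they stand at the changes of light. Some genes of the lists are not reported here by name.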

Additional observations from a re-analysis of the deposited data

How the results depend on the processing

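The main test gave 1756 peaks higher at mid-light and 415 higher at mid-dark. Other settings gave 765 and 649 (library totals), 786 and 238 (cyclic loess), 1149 and 307 (GC trend removed), 2979 and 1209 (DESeq2's Wald test, with 6408 adjusted p-values missing), 4 and 0 (adjusted p under 0.01) and 901 and 306 (fold of at least 1.5). DESeq2 size factors, upper-quartile factors, limma-voom and filters on low counts stayed within 1.5 times of both counts. With libraries 12 h apart as a replicate block, 3 and 0 peaks were called, with 12266 at an unadjusted p under 0.05; the labels pair no libraries, and the block leaves fewer degrees of freedom. Leaving out 1 library gave 3 (without ZT18) to 3093 (without ZT21) and 0 (without ZT6 or ZT18) to 1680 (without ZT21). For the gene lists together the 111 and 7 calls among 1373 peaks became 51 and 9 (library totals), 27 and 8 (cyclic loess) and 71 and 5 (GC trend removed). They became 3 and 0 with the 12-h block, and 3 to 161 and 0 to 20 with 1 library left out. Among the 497 of these peaks with a start site within 10 kb, 53 and 2 were called. With the GC trend removed, intracellular lipolysis and triglyceride synthesis had 4 mid-light calls each, secreted factors 2 and lipid droplet proteins 1. For the strongest class the 741 and 19 calls became 306 and 46, 123 and 76, and 2 and 0 under library totals, cyclic loess and the 12-h block, and 2 to 1143 and 0 to 75 with 1 library left out. In the central 500 bases, DR1 elements were in 18.2% of mid-light and 8.67% of mid-dark peaks at up to 2 mismatches. Over the whole peak they were in 10.5% and 2.65% at up to 1 mismatch, and in 44.0% and 20.7% at up to 2. The Cebpa peak reversed under cyclic loess (log2 fold change -0.0157). The cause of these shifts was not tested. The list counts and strongest-class counts with a library left out or the block were chosen after seeing the data.

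With 1 library a time point, no time point has an error of its own. In the simulation 42 of 100 peaks changed 1.5-fold were called, so that changes of that size can be missed. The simulation used the same dispersion of 0.015 for all peaks, 200 changed peaks and no change within a side. It therefore does not give the share of changes missed, or of false calls, in these libraries.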
